A study of Homo sapiens with 2 samples.

Results

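The EGF-family ligands AREG, EREG, HBEGF, TGFA, BTC and NRG1 and the ERBB receptors EGFR, ERBB2, ERBB3 and ERBB4 were examined in breast cancer cells treated with cisplatin. These 10 genes were taken by name from the 23033 genes with a value in the deposited expression table, and all 10 were found there through their Entrez gene IDs. Total RNA was sequenced from wild type cells, called control here, and from FZR1 ko cells, in which CRISPR/Cas9 was directed at FZR1, an activator of the anaphase-promoting complex. Both groups carried the label of the T-47D line and both received cisplatin at 2 µg/ml, so cells without the drug were not analysed here, and the time of treatment was not given. The FZR1 ko line came from single cell cloning, so it is 1 clone. There was 1 library per group and therefore no replicate check, no error and no test for any difference below.

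ERBB receptors are tyrosine kinases of the cell surface that pair with each other when a ligand binds. Most EGF-family ligands are made as membrane proteins and are cut free by ADAM metalloproteases, after which they act on the same cell or its neighbours. AREG (amphiregulin) and TGFA bind EGFR, while EREG (epiregulin), HBEGF (heparin-binding EGF-like growth factor) and BTC (betacellulin) bind EGFR and ERBB4. NRG1 (neuregulin) binds ERBB3 and ERBB4, ERBB2 has no known ligand of its own, and ERBB3 has little kinase activity and works through its partners. The RAS, RAF, MEK and ERK kinases carry the signal on. In breast cancer the family is best known for ERBB2, which is amplified in a part of the tumors and is a drug target.

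Levels are given as FPKM, fragments counted per length of transcript and per sequencing depth, so they can be compared between genes. Differences are given as log2 ratios of FZR1 ko over control after a pseudocount of 1 FPKM was added to each value, which draws the ratios of low genes towards 0. Genes that reached 1 FPKM in either library were compared, 13554 in all, and their median log2 ratio was -0.0048. The number of reads behind a value is unknown. The most frequent ratio between the libraries among short RNA genes, at 0.978, puts the depth of the FZR1 ko library at 1.02 times that of control. FZR1 itself had 12.3 FPKM in control against 10.1 FPKM in FZR1 ko, and an edit of the gene need not remove its mRNA. Of 12 markers of luminal breast cells, the type of the T-47D line, 7 were below 1 FPKM in both libraries, among them ESR1 at 0.04 and 0.13 FPKM, PGR at 0.01 FPKM and listed at 0, GATA3 at 0.31 and 0.15 FPKM, CDH1 at 0.69 and 0.62 FPKM, KRT19 at 0.20 and 0.16 FPKM and SPDEF at 0.19 and 0.31 FPKM. The other 5 were expressed, with KRT8 at 829 and 998 FPKM, KRT18 at 552 and 740 FPKM, XBP1 at 93.4 and 72.6 FPKM, TFF1 at 9.80 and 7.52 FPKM and FOXA1 at 5.07 and 4.65 FPKM. The 7 low markers thus go against the label and these 5 do not, so the identity of the line is uncertain. The median log2 ratio of the luminal markers that passed the filter was -0.10. Of 12 mesenchymal and basal markers, 5 were below 1 FPKM in control and 4 in FZR1 ko. The basal markers KRT5, KRT14 and TP63 and the mesenchymal marker SPARC were below 1 FPKM in both. Of the 8 that passed the filter, 4 had a log2 ratio below 0 and 4 above 0, and the median was 0.21. TWIST1 passed through its FZR1 ko value alone, and among markers with at least 1 FPKM in both libraries the median was -0.091. Vimentin (VIM), a mesenchymal marker, stood at 315 and 295 FPKM, which also goes against the label. CD44 had 65.7 and 59.4 FPKM, CAV1 18.4 and 31.4 FPKM, FN1 6.33 and 5.88 FPKM and ZEB1 2.82 and 4.45 FPKM. N-cadherin (CDH2), the only one of the 8 at least 2-fold apart, had 2.97 and 15.3 FPKM, and SNAI2 had 7.05 and 3.86 FPKM. The part of these markers in the differences below was not tested. No other cell type is assigned here. In bulk RNA, fewer cells that express a gene and less of its mRNA per cell cannot be told apart.

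In control cells HBEGF, EREG and AREG were the highest genes of the family, and in FZR1 ko cells EGFR, ERBB2 and EREG were. HBEGF, EREG and AREG were lower in FZR1 ko, and TGFA, EGFR, ERBB2 and ERBB3 were higher. Of the 10 genes, 7 passed the filter on low values, and each of the 7 had more than 1 FPKM in both libraries. HBEGF and EREG were at least 2-fold lower in FZR1 ko, 2 of 7 genes against 6.72% of all genes compared. EGFR was at least 2-fold higher, 1 of 7 against 6.78% of all genes compared. Among protein-coding genes that span 100 to 200 kb, as EGFR does, 19.2% were at least 2-fold higher. In either direction 3 of 7 members passed, where the background was 13.5%. The members were chosen with earlier results of these data known, so these shares are only a description.

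**Figure D1:**
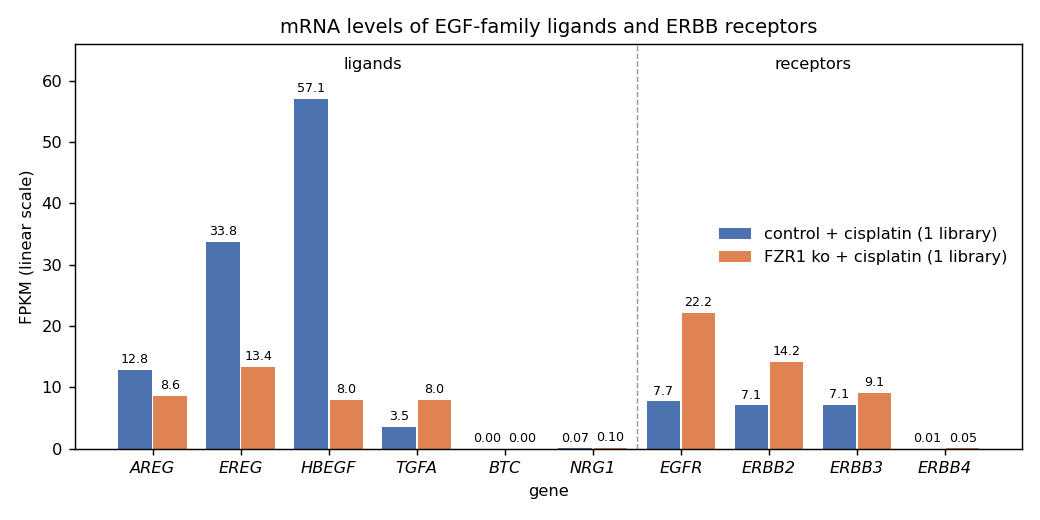
FPKM (linear axis) of the 6 ligand genes and the 4 receptor genes in the control and the FZR1 ko library, 1 bar per library, with no error bars because there was 1 library each. HBEGF is the highest bar in control at 57.1 FPKM, EGFR is the highest in FZR1 ko at 22.2 FPKM, and BTC, NRG1 and ERBB4 do not exceed 0.10 FPKM in either.

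Among the ligands, HBEGF (Entrez gene 1839, minus strand, chr5:140332843-140346603 of hg38) differed most. It had 57.1 FPKM in control against 8.03 FPKM in FZR1 ko, 7.11-fold lower by the plain values. With the pseudocount the log2 ratio of HBEGF was -2.69. Its product is made as a precursor in the membrane, and the precursor is also known as the receptor for diphtheria toxin. Only 11 of 11550 protein-coding genes compared, HBEGF included, had a log2 ratio as low. In control its level lay above that of 85.7% of these genes, and in FZR1 ko above that of 38.1%.

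EREG (Entrez gene 2069, plus strand, chr4:74365145-74388749) had 33.8 FPKM in control against 13.4 FPKM in FZR1 ko. The plain values were 2.53-fold lower in FZR1 ko, and with the pseudocount the log2 ratio was -1.28. Of the protein-coding genes, 305 had a log2 ratio as low or lower. AREG (Entrez gene 374, plus strand, chr4:74445136-74455005) had 12.8 FPKM in control against 8.58 FPKM in FZR1 ko. This gene was lower in FZR1 ko by a log2 ratio of -0.53, short of the 2-fold threshold, and 2069 protein-coding genes had a ratio as low or lower. EREG and AREG encode soluble growth factors that bind EGFR with lower affinity than EGF does.

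TGFA (Entrez gene 7039, minus strand, chr2:70447284-70553826) went the other way from these ligands. It had 3.54 FPKM in control against 8.01 FPKM in FZR1 ko. With the pseudocount the log2 ratio was 0.99, just under the threshold, while the plain ratio of the values was 2.26-fold. BTC was listed at 0 in both libraries, and NRG1 had 0.07 and 0.10 FPKM, so neither was compared. Of 5 further ligand genes of the family, only NRG4, a ligand of ERBB4, passed the filter, with 4.55 FPKM in control against 6.97 FPKM in FZR1 ko (log2 ratio 0.52). EGF had 0.11 and 0.05 FPKM and EPGN (epigen) 0.23 and 0.07 FPKM.

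Among the receptors, EGFR (Entrez gene 1956, plus strand, chr7:55019017-55211628) had 7.73 FPKM in control against 22.2 FPKM in FZR1 ko. The plain values were 2.87-fold higher in FZR1 ko, and with the pseudocount the log2 ratio was 1.41. Of the 11550 protein-coding genes, 205 had a ratio as high or higher. ERBB2 (Entrez gene 2064, plus strand, chr17:39688094-39728658) had 7.06 and 14.2 FPKM. Its values differed 2.01-fold, and with the pseudocount the log2 ratio was 0.91. ERBB3 (Entrez gene 2065, plus strand, chr12:56080108-56103505) had 7.14 and 9.07 FPKM, a log2 ratio of 0.31. ERBB4 had 0.01 and 0.05 FPKM and was not compared.

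The 3 receptor genes that passed the filter were thus near each other in control, between 7.06 and 7.73 FPKM. In FZR1 ko they were spread from 9.07 FPKM for ERBB3 through 14.2 FPKM for ERBB2 to 22.2 FPKM for EGFR. Without replicates, it is not known whether neighbours in such an order differ beyond the spread between cultures.

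**Figure D2:**
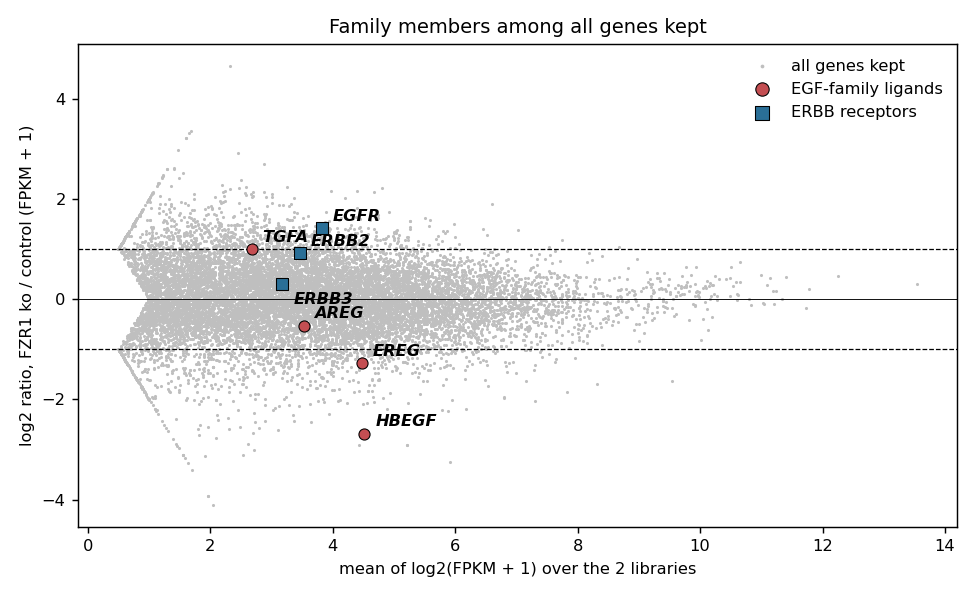
Log2 ratio of FZR1 ko over control (FPKM + 1) against the mean log2(FPKM + 1) of the 2 libraries for the 13554 genes compared (grey), with the 4 ligand genes (circles) and 3 receptor genes (squares) that passed the filter. Dashed lines mark 2-fold. HBEGF lies at -2.69, at the lower edge of genes of its level, and EGFR at 1.41.

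As a group, the 6 ligand genes summed to 107 FPKM in control against 38.1 FPKM in FZR1 ko, 2.82-fold lower. HBEGF weighed most in this sum. Without it the ligands summed to 50.2 and 30.1 FPKM, 1.67-fold lower in FZR1 ko. HBEGF made up 53.2% of the ligand sum in control and 21.1% in FZR1 ko, whereas TGFA made up 3.30% in control and 21.0% in FZR1 ko. EREG held 31.5% and 35.1% of the sum, and AREG 12.0% and 22.5%. In FZR1 ko the ligand with the largest part was therefore EREG.

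The 4 receptor genes summed to 21.9 FPKM in control against 45.5 FPKM in FZR1 ko, 2.07-fold higher. Without EGFR, the highest of them, the sums were 14.2 and 23.3 FPKM, 1.64-fold higher in FZR1 ko. EGFR made up 35.2% of the receptor sum in control and 48.8% in FZR1 ko. ERBB2 held 32.2% and 31.2%, and ERBB3 32.5% and 19.96%. These shares concern mRNA per transcript length and not the amount of receptor protein.

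**Figure D3:**
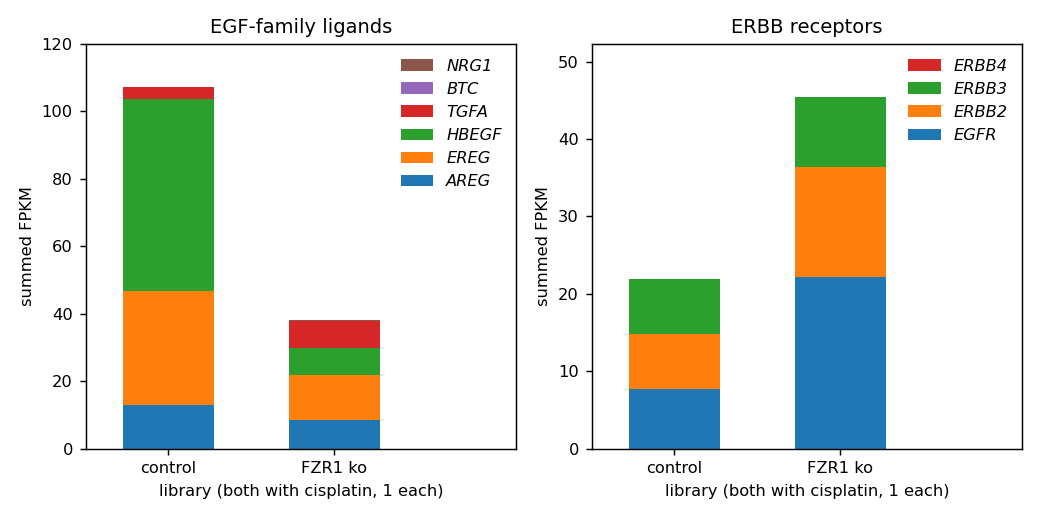
Summed FPKM of the ligand genes (left) and the receptor genes (right) in each library, 1 stacked bar per library, with the part of each gene in colour and separate vertical axes. The ligand bar is 107 FPKM in control against 38.1 FPKM in FZR1 ko, and the receptor bar is 21.9 and 45.5 FPKM.

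The promoters of the 3 ligand genes that were lower in FZR1 ko are shown beside that of EGFR, the receptor gene with the largest difference, to set the sequences next to genes that differed in opposite directions. Each run is the 250 bases before the annotated gene start, on the strand of the gene, from RefSeq on GRCh38.p14. Capitals mark letters that match an AP-1 site (TGACTCA), a cyclic AMP response element or CRE (TGACGTCA), a TATA box (TATAAA) or a GC box (GGGCGG), searched on both strands, and matches may overlap. The bases that follow each run are the start of the MANE Select transcript of the gene in GENCODE 44.
HBEGF, chr5:140346604-140346853, minus strand: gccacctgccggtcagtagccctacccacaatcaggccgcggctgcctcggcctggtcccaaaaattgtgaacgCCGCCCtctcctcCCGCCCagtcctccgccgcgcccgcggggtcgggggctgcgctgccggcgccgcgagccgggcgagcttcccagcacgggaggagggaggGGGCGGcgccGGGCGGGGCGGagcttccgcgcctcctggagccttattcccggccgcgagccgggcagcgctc
EREG, chr4:74364895-74365144, plus strand: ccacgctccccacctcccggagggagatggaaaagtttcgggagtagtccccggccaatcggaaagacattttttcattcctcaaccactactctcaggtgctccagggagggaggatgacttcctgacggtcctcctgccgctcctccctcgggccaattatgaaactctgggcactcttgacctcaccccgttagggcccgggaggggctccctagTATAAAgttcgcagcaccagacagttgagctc
AREG, chr4:74444886-74445135, plus strand: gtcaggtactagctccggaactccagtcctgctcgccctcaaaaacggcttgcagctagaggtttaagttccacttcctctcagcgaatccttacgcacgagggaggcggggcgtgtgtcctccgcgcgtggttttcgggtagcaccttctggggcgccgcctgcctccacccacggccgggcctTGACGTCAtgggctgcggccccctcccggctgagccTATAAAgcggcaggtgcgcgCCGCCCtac
EGFR, chr7:55018767-55019016, plus strand: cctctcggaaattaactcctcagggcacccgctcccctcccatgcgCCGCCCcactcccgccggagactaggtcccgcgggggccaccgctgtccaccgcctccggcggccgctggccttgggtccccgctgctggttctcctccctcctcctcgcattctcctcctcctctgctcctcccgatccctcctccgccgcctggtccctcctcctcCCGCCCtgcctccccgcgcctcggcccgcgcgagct

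A TATA box was found 32 bases before the start of EREG and 29 bases before that of AREG, and in 10.7% of 35116 promoter windows of this length. AREG also had a CRE match 65 bases before its start, a sequence held by 1.65% of the windows. HBEGF had 5 GC box matches, EGFR 2, AREG 1 and EREG 0, while 42.6% of the windows had at least 1. No AP-1 match of these letters lay in the 4 windows, against 4.20% of all windows. The G and C content was 76.4% for HBEGF, 73.6% for EGFR, 65.2% for AREG and 58.0% for EREG. A match of letters is not a measured binding site, and no protein binding was measured in these samples.

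EREG and AREG are also neighbours in the genome, 56.4 kb apart in a cluster of ligand genes on chromosome 4 that runs over 486 kb from EPGN through EREG and AREG to BTC. Within 1 Mb of AREG, 6 other genes were compared, and 3 of them were at least 2-fold lower in FZR1 ko, against 6.72% of all genes compared. These were EREG and the chemokine genes CXCL8, at 186 and 18.7 FPKM (log2 ratio -3.25), and CXCL3, at 7.16 and 2.13 FPKM (-1.38). CXCL2 had 6.79 and 3.73 FPKM (-0.72) and CXCL1 had 6.16 and 5.27 FPKM (-0.19), so the chemokine genes differed among themselves. MTHFD2L, which lies between the chemokine genes and EREG, had 1.14 and 1.16 FPKM. None of the genes compared within 1 Mb of AREG was at least 2-fold higher.

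The genes around EREG and BTC overlap with these, with 2 of 6 and 2 of 11 at least 2-fold lower and 0 higher. Around the remaining members the shares are to be read against 6.72% lower and 6.78% higher over all genes compared. Of 19 genes compared within 1 Mb of TGFA, 2 were at least 2-fold lower and 0 higher, and of 10 around NRG1 3 were lower, 1 of them a short RNA gene listed at 0 in FZR1 ko, and 0 higher. Of 51 around ERBB3, 1 was lower and 4 were higher, 2 of the 4 being short RNA genes listed at 0 in control, and of 5 around ERBB4 0 were lower and 2 higher. Of 39 genes compared within 1 Mb of HBEGF, 1 was at least 2-fold lower and 3 were higher, and the lower one and 2 of the higher ones passed the filter through a single library. Of 15 around EGFR, PHKG1, below 1 FPKM in FZR1 ko, was lower at 2.26 and 0.58 FPKM, and VOPP1 was higher, at 24.0 FPKM in control against 49.7 FPKM in FZR1 ko (log2 ratio 1.02). Of 39 around ERBB2, 3 were lower and 2 were higher, both of the latter microRNA genes listed at 0 in control. GRB7, which encodes an adaptor and is often amplified together with ERBB2, was among the lower ones with 8.78 and 3.79 FPKM (-1.03), in the direction opposite to ERBB2. MIR4728, one of these microRNA genes, lies within ERBB2 and reached 3.75 FPKM in FZR1 ko. MIEN1, which overlaps the end of ERBB2, had 23.4 and 20.8 FPKM. Whether the counting used strand is not given in the sources used here, so reads of overlapping genes may not be separated.

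The other genes of the pathway were taken from lists and described by counts beside the same background. The lists, too, were chosen with earlier results of these data known. Of 15 genes for the shedding and transport of ligands, 12 passed the filter and 0 differed 2-fold in either direction, against 13.5% of all genes compared, with a median log2 ratio of -0.21. ADAM17, the main protease that frees AREG, HBEGF and TGFA, had 3.73 FPKM in control against 6.66 FPKM in FZR1 ko (0.70). ADAM10, the main protease for EGF and BTC, had 6.75 and 9.16 FPKM (0.39). RHBDF1 and RHBDF2 encode the iRhom proteins that bring ADAM17 to the surface. RHBDF1 had 12.1 and 6.80 FPKM (-0.75), and RHBDF2 had 8.02 and 8.56 FPKM (0.08).

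Of 32 genes for adaptors and kinases downstream of the receptors, 30 passed the filter, 0 were at least 2-fold lower and 2 were at least 2-fold higher, a share near the 6.78% of all genes compared, and the median was 0.36. The higher ones were GAB2, a docking protein, at 0.35 and 3.70 FPKM (log2 ratio 1.80), and PIK3CB, a catalytic subunit of PI3 kinase, at 1.22 and 3.88 FPKM (1.14). GAB2 passed the filter through its FZR1 ko value alone. SHC1, an adaptor of the receptors, had 176 and 116 FPKM (-0.59), and MAP2K2, which encodes MEK2, had 53.7 and 97.1 FPKM (0.84).

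Negative regulators of the receptors were described next. Of 26 genes, 22 passed the filter, 4 were at least 2-fold lower and 2 at least 2-fold higher in FZR1 ko, where the background was 6.72% lower and 6.78% higher, and the median was 0.15. ERRFI1, also called MIG6, encodes a protein that binds the EGFR kinase and blocks it. It had 37.9 FPKM in control against 9.74 FPKM in FZR1 ko (log2 ratio -1.85). SPRY4, a sprouty inhibitor of the RAS pathway, had 14.6 and 1.83 FPKM (-2.46). SOCS4 had 18.4 and 6.59 FPKM (-1.35), and SPRED3, which passed the filter through control alone, had 2.63 and 0.49 FPKM (-1.28). The higher ones were PTPRJ, a receptor phosphatase, at 3.46 and 8.32 FPKM (1.06), and NF1, a RAS GTPase activator, at 1.14 and 3.44 FPKM (1.05). LRIG1, a membrane protein that lowers ERBB receptor levels, had 1.06 and 1.78 FPKM (0.43).

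Genes known to be switched on through ERK, called ERK output genes here, were compared next. These data do not tie their levels to the receptors. Of 19 genes, 16 passed the filter and 8 of these were at least 2-fold lower in FZR1 ko, against 6.72% of all genes compared, while 0 were at least 2-fold higher. The median log2 ratio was -1.01. DUSP6, a phosphatase of ERK, had 12.0 FPKM in control against 3.13 FPKM in FZR1 ko (-1.65). The transcription factor genes ETV4 and ETV5 had 21.0 and 8.73 FPKM (-1.18) and 9.74 and 3.43 FPKM (-1.28). FOSL1 had 182 and 75.1 FPKM (-1.27) and IER3 had 431 and 119 FPKM (-1.85). The others were SPRY4, given above, EGR1 at -2.68 and FOS at -2.57. The remaining 8 did not differ 2-fold, and their log2 ratios ran from -0.84 for PHLDA1 to 0.76 for MYC. Among them DUSP4 had 17.3 and 17.0 FPKM, CCND1 71.7 and 68.5 FPKM, and MYC 54.8 and 93.8 FPKM. SPRY2, SPRY4, SPRED1 and SPRED2 are in this list and in that of the negative regulators. ERK activity itself was not measured by RNAseq.

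Receptor tyrosine kinase genes outside the ERBB family were compared as the receptors most like them. Of 30 genes, 15 passed the filter, 4 were at least 2-fold higher and 1 was at least 2-fold lower in FZR1 ko, against 6.78% and 6.72% of all genes compared, and the median was 0.75. MET had 12.8 and 28.4 FPKM (log2 ratio 1.10), AXL 16.0 and 37.8 FPKM (1.19), IGF1R 0.99 and 4.75 FPKM (1.53) and ROR2 0.49 and 3.44 FPKM (1.58). IGF1R, ROR2 and PDGFRB passed the filter through the FZR1 ko library alone. TYRO3 was lower, at 33.6 and 15.5 FPKM (-1.07). Among the 12 of these that reached 1 FPKM in each library, 2 were at least 2-fold higher, 1 was lower, the median was 0.28 and the range ran from -1.07 to 1.19. The log2 ratios of EGFR, ERBB2 and ERBB3, each above 1 FPKM in both libraries, ran from 0.31 to 1.41.

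**Figure D4:**
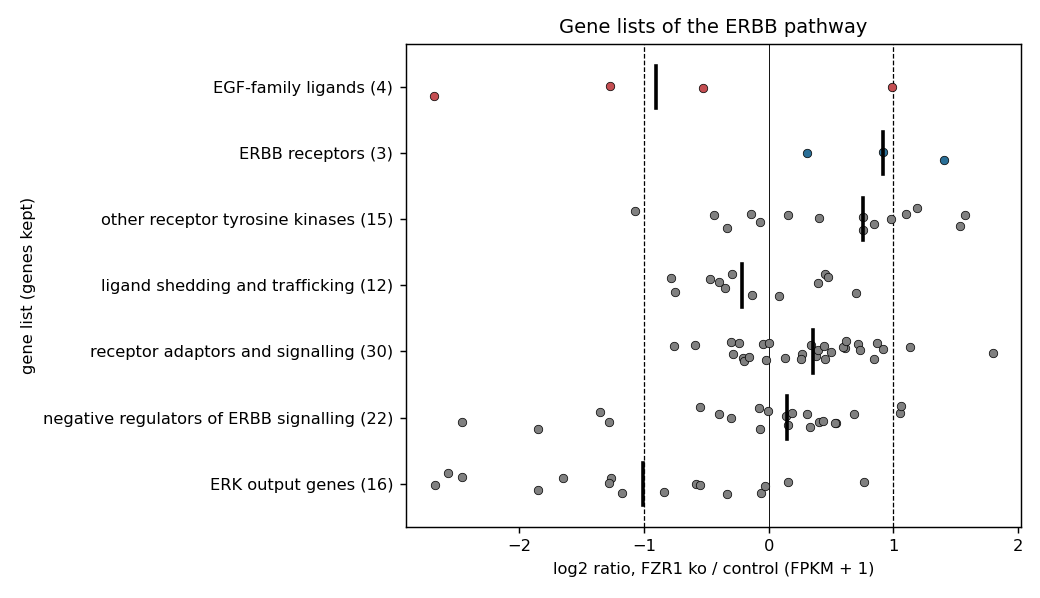
Log2 ratio of FZR1 ko over control (FPKM + 1) for the genes that passed the filter in each list, 1 point per gene, with the number of genes in brackets, the list median as a thick bar and 2-fold as dashed lines. Points are shifted up or down at random for legibility. The ERK output genes have a median of -1.01 and the ERBB receptors one of 0.91.

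The differences between the libraries also moved with the span of a gene in the genome, from its first to its last annotated base. Among the 2041 protein-coding genes of 10 to 20 kb, 8.33% were at least 2-fold lower in FZR1 ko and 2.06% at least 2-fold higher, and the median log2 ratio was -0.19. Among the 1179 genes of 100 to 200 kb, 0.254% were lower and 19.2% were higher, with a median of 0.58, and among the 557 longer genes 34.3% were higher. Across the 11550 protein-coding genes compared, Pearson's r of the log2 ratio with the log of the span was 0.45 and Spearman's rho was 0.45. Genes of the same libraries are not independent replicates, so these values are a description.

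HBEGF, EREG and AREG span 13.8, 23.6 and 9.87 kb, whereas TGFA spans 107 kb and EGFR 193 kb. ERBB3 spans 23.4 kb, close to EREG, and ERBB2 spans 40.6 kb. With the median of the genes of the same span class subtracted, the log2 ratio was -2.49 for HBEGF, -1.23 for EREG and -0.33 for AREG. HBEGF then had the lowest ratio of the 2041 genes in its class. For TGFA the value was 0.41 in place of 0.99, and for EGFR it was 0.83 in place of 1.41, below the 2-fold threshold. For ERBB2 it was 0.96 and for ERBB3 0.35, both slightly above the values without the subtraction. Among genes of 100 to 200 kb, 43 of 1179 had a ratio as high as that of EGFR and 234 one as high as that of TGFA. Among those of 20 to 50 kb, 134 of 3257 had one as high as that of ERBB2. Whether the span itself has a part in the differences of EGFR and TGFA was not tested.

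The pathway lists can be read in the same way. The ERK output genes are short, with a median span of 10.9 kb, and their median was -0.81 once the span class was subtracted. For the other receptor tyrosine kinases the median went from 0.75 to 0.50, or from 0.28 to 0.38 among those with at least 1 FPKM in both libraries, and for the adaptors and kinases from 0.36 to 0.0022. The values of ERRFI1 and SPRY4 with the class median subtracted were -1.66 and -2.27. PTPRJ, NF1 and PIK3CB span more than 100 kb and were no longer 2-fold higher, at 0.49, 0.26 and 0.56. The same held for MET, IGF1R and ROR2, at 0.52, 0.74 and 0.78, whereas GAB2, also of this length, had 1.005. AXL, in a class of shorter genes, had 1.23. ETV4 went from -1.18 to -0.98, just short of 2-fold, and N-cadherin (CDH2) from 2.04 to 1.24.

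**Figure D5:**
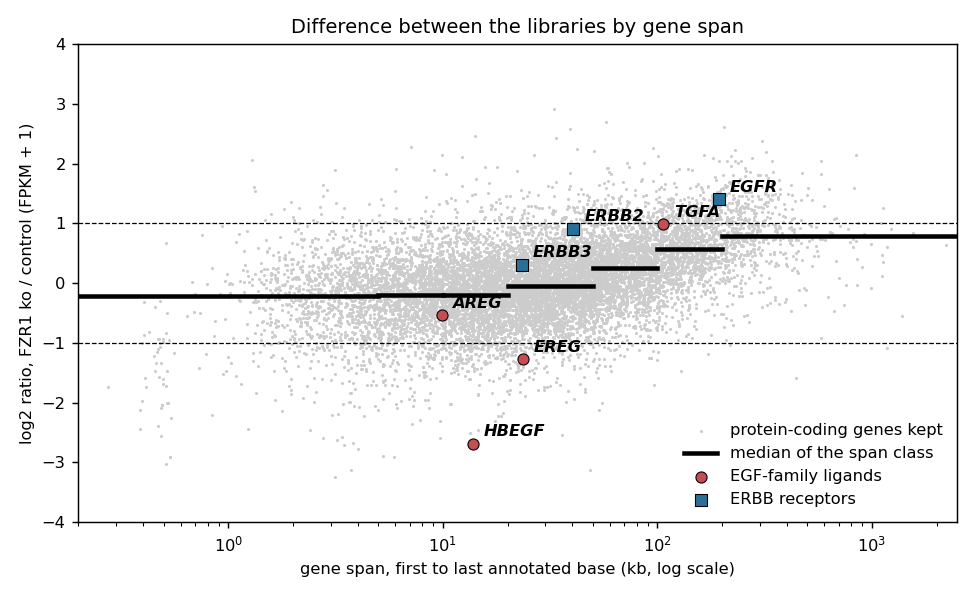
Log2 ratio of FZR1 ko over control (FPKM + 1) against gene span in kb (log axis) for the 11550 protein-coding genes compared (grey), with the median of each of 7 span classes as a black bar, the ligand genes as circles, the receptor genes as squares and 2-fold as dashed lines. The class medians go from -0.21 for genes up to 5 kb to 0.80 for genes over 200 kb, HBEGF lies far below its class and EGFR lies above its class by 0.83.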

How the data were processed

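Cells treated with cisplatin, either control or FZR1 ko, gave total RNA that was sequenced on a BGISEQ-500, with 1 library per group. The authors aligned the reads with Bowtie2 and RSEM to hg38 and deposited FPKM per Entrez gene ID, with 2 decimals. The submitters' processing notes also name Trimmomatic 0.36, HISAT2 2.1.0 and Bowtie2 2.2.5. The annotation version is not given in the sources used here. FPKM holds no read numbers. Of 24663 rows, 1630 had no value, and 22925 of the other 23033 matched a RefSeq symbol (GRCh38.p14, the same build).

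The log2 ratio, its 2-fold threshold and the span classes were computed in Python 3.11.15 with pandas 2.3.3. The ratio and its threshold, but not the span classes, were checked on simulated 4-fold changes. That check covers neither low genes nor ratios near 2-fold. Exons and strands came from GENCODE 44. No test was possible. The members and lists were chosen with earlier results of these data known. Named genes were FZR1, the members, list genes at least 2-fold apart (at most 6 per list) or defining for a list, and such neighbours within 1 Mb. The genes NRG4, EGF, EPGN, SHC1, MAP2K2, RHBDF1, RHBDF2, DUSP4, CCND1, MYC, PHLDA1, CXCL1, CXCL2, MTHFD2L, MIEN1, ETV4, FOSL1, PDGFRB, KRT8, KRT18, KRT19, SPDEF, SNAI2, XBP1, TFF1, FOXA1, CD44, CAV1, FN1, ZEB1, TWIST1, KRT5, KRT14, TP63 and SPARC were named after their values were seen. Alternatives were other pseudocounts, filters, centring, scaling, a 4-fold threshold and protein-coding genes alone. Span correction and ratios without a pseudocount, under a filter of 1 FPKM in each library, were added after seeing the data.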

Additional observations from a re-analysis of the deposited data

How the results depend on the processing

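No paired analysis was possible because each group has 1 library, and for the same reason no library could be left out. A pseudocount, a filter or a threshold cannot turn the direction of a member. Centring and rescaling moved the ratios too little to do so. ERBB3, the member nearest 0, went from 0.307 to 0.312 with either. The span class median differs between genes, and with it subtracted no member changed direction. The log2 ratio ranged from -2.83 to -2.25 for HBEGF, from -1.34 to -1.08 for EREG, from 0.83 to 1.52 for EGFR, from 0.41 to 1.18 for TGFA and from 0.67 to 1.005 for ERBB2. In place of 1 member at least 2-fold higher in FZR1 ko, there were 2 when 0.1 FPKM was the pseudocount, 3 without a pseudocount and with the filter raised to 1 FPKM in each library, and 0 with the span class median subtracted. At 4-fold, 1 member was lower and 0 were higher. Of all genes, 911 lower and 919 higher at first, 89 and 61 passed at 4-fold, 270 and 183 when 5 FPKM was the pseudocount, and 558 and 403 with the span class median subtracted. The class medians come from protein-coding genes, of which 657 were lower and 738 higher at first. With 0.1 FPKM, 1358 of all genes were lower and 1460 higher. Without a pseudocount and with at least 1 FPKM in each library, 872 were lower and 979 higher, out of fewer genes compared. Without HBEGF the log2 ratio of the ligand sums was -0.74 in place of -1.50.

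Of 90 list medians, 9 changed sign. Without the filter on low values, which adds genes near 0, they were -0.040 for the other ligands, -0.0069 for the other receptor tyrosine kinases (0.75 at first, 0.28 with at least 1 FPKM in both libraries and 0.33 when 5 FPKM was the pseudocount) and -0.060 for the mesenchymal and basal markers. That marker list, at 0.21 at first, also had -0.091 with at least 1 FPKM in both libraries, and -0.094 with that filter and no pseudocount. With the span class median subtracted, the medians were -0.055 for the other ligands, -0.13 for the negative regulators, 0.019 for the luminal markers and -0.089 for the mesenchymal and basal markers. The cause of these changes was not tested. The unknown depth limits the low genes most, among them ERBB4, NRG1 and EPGN.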
